A study of Mus musculus with 7 samples.

Results

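The 10 genes described here mark T cells or set how they are activated and restrained: Cd3d, Cd3e, Cd3g, Cd4, Cd8a, Cd8b1, Foxp3, Ctla4, Cd28 and Icos. They were chosen by name, and not by a rule on their measured values, from the 55401 genes of a count table of mouse lung. Earlier results of these data were known when they were chosen. All 10 were found in the table by their GENCODE identifiers, and all 10 passed the filter on low counts that left 17465 genes to be tested. None of the 10 passed the test between the groups. The mean levels of 9 were higher in the lungs exposed to hyperbaric oxygen, with 1 treated mouse highest in 7 of them.

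The lungs came from 7 male C57BL/6 mice aged 6 to 8 weeks, all given bleomycin, a drug that injures the lung and leaves it fibrotic. In the BLM+HBO group, 3 mice breathed pure oxygen at 2.5 atmospheres absolute for 90 min a day over 14 days from day 7, and in the BLM group 4 mice did not. The sample records place the BLM mice in the chamber without pressurised oxygen, whereas the supplementary methods call them untreated, so that handling was not settled here. Lungs were taken on day 21, and mice that lost little weight after bleomycin had been excluded as failed models. No lung without bleomycin was among the libraries, so a level can be compared only between the 2 bleomycin groups.

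T cells carry a receptor whose chains reach the cell interior through the CD3 proteins, while CD4 and CD8 act as co-receptors that bind class II and class I antigen-presenting molecules and divide helper from cytotoxic cells. A second signal, through CD28 and then ICOS, sustains activation, and CTLA-4 competes with CD28 for the same ligands and restrains it. FOXP3 is the transcription factor that defines regulatory T cells, which suppress other lymphocytes and also reside in injured lung.

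Library totals ran from 18157161 to 26365969 counts, and BLM+HBO 3 had the highest. Surfactant gene Sftpc stood at 4549 to 16262 CPM (counts scaled to a common library size) over the 7 libraries, and the thymocyte genes Rag1, Rag2 and Ptcra were at or near 0 (at most 2, 1 and 1 counts in a library), while Dntt had 2 to 8 counts. The member genes were read at low depth, with 28 to 282 counts per gene and library. The lowest of these, 28 counts for Cd28 in BLM 2, has an exact Poisson 95% interval of 18.6 to 40.5 counts, which covers counting error only. In bulk lung tissue, fewer T cells and less RNA per T cell cannot be told apart.

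The CD3 genes lie together on chromosome 9 of GRCm38. Cd3g (ENSMUSG00000002033.14, chr9:44969572-44980431, minus strand) and Cd3d (ENSMUSG00000032094.8, chr9:44981786-44987339, plus strand) stand head to head with their starts 1355 bases apart, and Cd3e (ENSMUSG00000032093.7, chr9:44998740-45009627, minus strand) lies beyond Cd3d, with 11400 bases between them. Because these neighbours encode partners of 1 complex, their start regions are shown side by side as RefSeq lists them for GRCm38.p6, from 250 bases before to 50 after the start, with motif matches on either strand in capitals. For ETS factors the letters searched were CAGGAA. For GATA factors they were AGATAA, and for RUNX factors TGTGGT. The TATA box was searched as TATAAA, and no 2 of these motifs overlapped in the windows shown.
Cd3g (chr9:44980382-44980681, minus strand): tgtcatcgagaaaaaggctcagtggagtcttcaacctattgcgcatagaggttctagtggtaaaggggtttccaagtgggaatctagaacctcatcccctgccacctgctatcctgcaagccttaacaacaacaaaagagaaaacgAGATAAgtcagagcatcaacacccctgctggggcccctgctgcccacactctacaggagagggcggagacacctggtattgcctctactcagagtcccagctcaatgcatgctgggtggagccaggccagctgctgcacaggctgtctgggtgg
Cd3d (chr9:44981536-44981835, plus strand): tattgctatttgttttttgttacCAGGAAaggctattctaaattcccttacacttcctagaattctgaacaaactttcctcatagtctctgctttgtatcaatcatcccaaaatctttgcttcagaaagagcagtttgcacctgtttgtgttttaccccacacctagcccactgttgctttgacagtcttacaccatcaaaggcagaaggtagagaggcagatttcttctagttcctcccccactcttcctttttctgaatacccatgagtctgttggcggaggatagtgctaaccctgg
Cd3e (chr9:45009562-45009861, minus strand): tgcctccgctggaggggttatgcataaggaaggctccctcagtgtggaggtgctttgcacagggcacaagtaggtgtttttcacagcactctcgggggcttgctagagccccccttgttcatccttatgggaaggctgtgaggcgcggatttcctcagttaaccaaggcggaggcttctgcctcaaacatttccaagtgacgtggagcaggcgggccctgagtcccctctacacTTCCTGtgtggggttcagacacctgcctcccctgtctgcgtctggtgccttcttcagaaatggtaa
Cd3g held the GATA letters at -104 to -99 from its start, Cd3d held the ETS letters at -227 to -222, and Cd3e held the ETS letters in reverse at -16 to -11. Of 32851 mouse windows of this kind, 30.6% held the ETS letters, 11.2% the GATA letters, 16.8% the RUNX letters and 13.6% the TATA letters, so each match is of a common kind. These matches are descriptions of the letters and not of binding.

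Cd3d, the delta chain of the complex, measured 5.12, 4.85, 5.98 and 6.11 CPM in BLM 1 to 4 and 12.4, 7.56 and 4.2 CPM in BLM+HBO 1 to 3. BLM+HBO 1 and BLM+HBO 2 lay above all BLM mice and BLM+HBO 3 below them, so the groups overlapped at both ends. The mean was 5.52 ± 0.625 CPM (SD, n = 4) without and 8.06 ± 4.12 CPM (SD, n = 3) with HBO. The log2 fold change was 0.54 with a standard error of 0.33 (edgeR quasi-likelihood test, Benjamini-Hochberg adjusted P = 0.578). Cd3g, the gamma chain, measured 7.21, 5.30, 6.75 and 9.16 CPM in BLM and 13.1, 8.90 and 4.95 CPM in BLM+HBO, with BLM+HBO 1 highest and BLM+HBO 3 lowest of the 7. Cd3e, the epsilon chain, measured 5.95, 4.68, 5.82 and 7.85 CPM in BLM and 11.4, 6.70 and 4.91 CPM in BLM+HBO, and again only BLM+HBO 1 exceeded BLM 4. Their log2 fold changes were 0.34 (SE 0.32) for Cd3g and 0.33 (SE 0.30) for Cd3e, and neither passed (edgeR adjusted P = 0.733 and 0.723). Of the exonic bases of Cd3e, 3.31% are shared with a gene on the opposite strand, Gm48719.

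**Figure D1:**
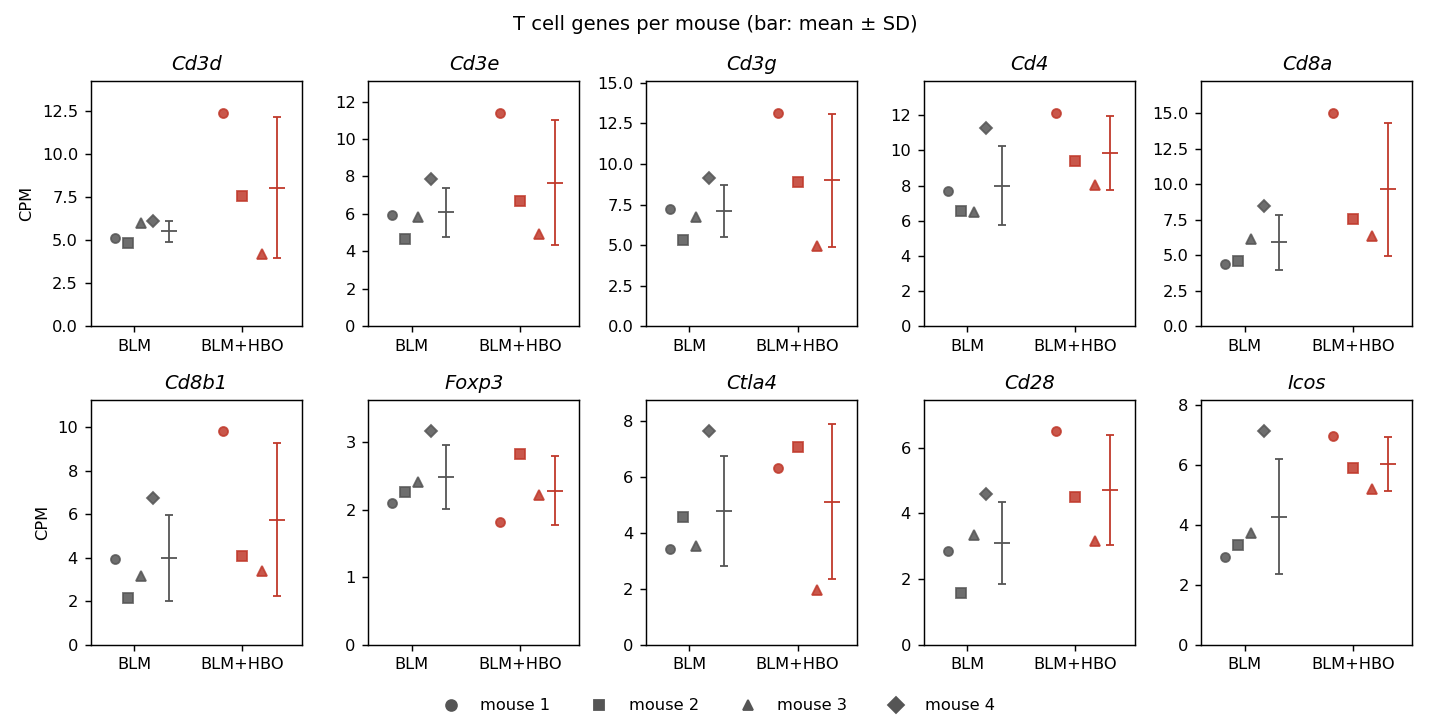
CPM of each of the 10 T cell genes (vertical axis, one panel per gene) in the 4 BLM and 3 BLM+HBO mice, with points for mice and bars for the group mean and SD. BLM+HBO 1 is the highest point in 7 panels and BLM 4 in the other 3, and no panel separates the groups.

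The co-receptor genes lie on chromosome 6: Cd4 (ENSMUSG00000023274.14) at chr6:124864692-124888221 on the minus strand, and Cd8a (ENSMUSG00000053977.13, chr6:71373427-71379173) and Cd8b1 (ENSMUSG00000053044.8, chr6:71322788-71337494) on the plus strand with 35932 bases between them. Cd4, the co-receptor of helper and regulatory T cells that some macrophages and dendritic cells also carry, measured 7.71, 6.54, 6.48 and 11.3 CPM in BLM and 12.1, 9.43 and 8.02 CPM in BLM+HBO. The means were 8.0 ± 2.25 and 9.86 ± 2.09 CPM (SD over 4 and 3 mice), with BLM 4 inside the range of the treated mice, and the log2 fold change was 0.30 (SE 0.25, edgeR adjusted P = 0.684).

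Cd8a, the alpha chain of the cytotoxic co-receptor, had the largest fold change of the 10. It measured 4.35, 4.57, 6.15 and 8.48 CPM in BLM and 15, 7.56 and 6.34 CPM in BLM+HBO, so that BLM+HBO 1 stood far above the rest and BLM 4 above the other 2 treated mice. The mean went from 5.89 ± 1.91 to 9.64 ± 4.69 CPM (SD over 4 and 3 mice), a fold of 1.63 with a 95% interval of 0.956 to 2.78 (edgeR quasi-likelihood test, adjusted P = 0.50). DESeq2, run as an alternative, put the log2 fold change at 0.70 with an unadjusted P of 0.0418 and an adjusted P of 0.408. Cd8b1, the beta chain found on conventional cytotoxic T cells, measured 3.91, 2.14, 3.13 and 6.74 CPM in BLM and 9.79, 4.07 and 3.37 CPM in BLM+HBO, with a log2 fold change of 0.52 (SE 0.46, edgeR adjusted P = 0.708). The start region of Cd8a is shown because this gene came nearest to the threshold, and it held none of the 4 motifs in these 300 bases.
Cd8a (chr6:71373177-71373476, plus strand): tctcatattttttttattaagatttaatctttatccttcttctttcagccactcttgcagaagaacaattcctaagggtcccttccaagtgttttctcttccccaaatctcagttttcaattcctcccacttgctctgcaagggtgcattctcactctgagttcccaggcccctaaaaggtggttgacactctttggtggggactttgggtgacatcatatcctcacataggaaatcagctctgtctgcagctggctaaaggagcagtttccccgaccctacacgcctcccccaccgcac

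Foxp3 was the only member with a lower mean in BLM+HBO. This regulator of regulatory T cells (ENSMUSG00000039521.13, chrX:7573644-7595245, plus strand) measured 2.09, 2.25, 2.42 and 3.16 CPM in BLM and 1.81, 2.82 and 2.21 CPM in BLM+HBO, from 34 to 60 counts. BLM+HBO 1, the mouse highest for most other members, was the lowest of the 7 here. The means were 2.48 ± 0.471 and 2.28 ± 0.511 CPM (SD over 4 and 3 mice), and the log2 fold change of -0.12 had a 95% interval of -0.77 to 0.53 (edgeR quasi-likelihood test, adjusted P = 0.914). Of its exonic bases 31.5% are shared with Ppp1r3f, Gm36995, Flicr or Ccdc22, where reads that touch several genes are not counted, so its level is uncertain. RefSeq lists 2 start windows for Foxp3, and the first is given because it holds a TATA match at -32 to -27, printed in capitals.
Foxp3, window 1 of 2 (chrX:7579426-7579725, plus strand): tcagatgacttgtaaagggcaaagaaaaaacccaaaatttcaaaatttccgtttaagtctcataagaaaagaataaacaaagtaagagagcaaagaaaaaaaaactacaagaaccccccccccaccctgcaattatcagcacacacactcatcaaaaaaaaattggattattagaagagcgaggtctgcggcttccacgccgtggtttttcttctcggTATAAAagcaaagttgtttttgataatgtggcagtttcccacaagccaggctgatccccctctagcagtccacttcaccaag

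The activation receptors Cd28 (ENSMUSG00000026012.2, chr1:60716800-60773359), Ctla4 (ENSMUSG00000026011.13, chr1:60887000-60915832) and Icos (ENSMUSG00000026009.14, chr1:60977927-61000320) follow each other on the plus strand of chromosome 1, with 113640 and 62094 bases between them. Cd28, the receptor of the first costimulatory signal, measured 2.86, 1.58, 3.35 and 4.58 CPM in BLM and 6.49, 4.50 and 3.15 CPM in BLM+HBO, and only BLM+HBO 1 exceeded BLM 4. Its mean went from 3.09 ± 1.24 to 4.71 ± 1.68 CPM (SD over 4 and 3 mice), with a log2 fold change of 0.60 (SE 0.38, edgeR adjusted P = 0.598). Icos, the inducible receptor of activated and follicular helper T cells, measured 2.92, 3.33, 3.73 and 7.11 CPM in BLM and 6.97, 5.89 and 5.17 CPM in BLM+HBO. All 3 treated mice lay above BLM 1 to 3 and below BLM 4, and the log2 fold change was 0.49 (SE 0.32, edgeR adjusted P = 0.612). Ctla4, the inhibitory receptor, measured 3.41, 4.57, 3.51 and 7.63 CPM in BLM and 6.33, 7.08 and 1.95 CPM in BLM+HBO. The treated mice held both high values and the lowest of the 7, and the log2 fold change of 0.09 had the wide interval of -0.92 to 1.10 (edgeR adjusted P = 0.960).

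Counted together, 0 of 10 members were called by the thresholds that the study set for all genes, an unadjusted P under 0.05 and a change of more than 1.5-fold, whereas 6.29% of all tested genes passed, 3.40% being higher with HBO and 2.89% lower. The unadjusted edgeR P values of the members ran from 0.0686 for Cd8a to 0.843 for Ctla4. At an unadjusted P below 0.05 alone the count was also 0 of 10, beside 10.7% of all tested genes in either direction and 5.11% higher in BLM+HBO. Adjusted P values of the members ran from 0.50 to 0.960, and edgeR gave no gene of the whole table an adjusted P below 0.05, the lowest being 0.423, while DESeq2 gave 155 such genes, none of them a member. The groups did not overlap for 0 of 10 members and for 8.77% of all tested genes (4.05% with HBO above BLM, 4.72% below). The median log2 fold change was 0.41 over the members and 0.01 over all tested genes, with 9 of 10 members and 51.2% of all tested genes above 0. Members that share cells do not count as separate observations. All 10 of the 95% intervals included no change, 9 reached up to a 1.5-fold increase or more, and that of Foxp3 stopped at a fold of 1.44. On the lower side 2 reached a 1.5-fold decrease or more, Ctla4 at a fold of 0.530 and Foxp3 at 0.587.

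**Figure D2:**
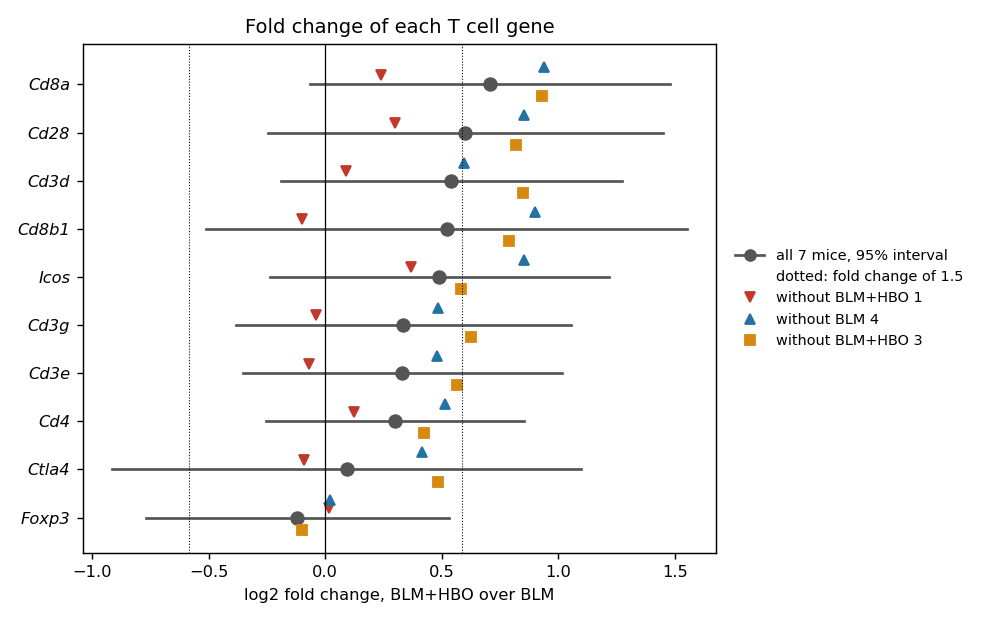
Log2 fold change of each member, BLM+HBO over BLM (horizontal axis), with its 95% interval from edgeR (grey) and its value without BLM+HBO 1 (red), without BLM 4 (blue) and without BLM+HBO 3 (orange). All 10 intervals cross 0, and without BLM+HBO 1 the values lie between -0.10 and 0.37.

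Single mice set the size of these differences. BLM+HBO 1 was the highest of the 7 mice in 7 members, BLM+HBO 2 exceeded all BLM mice in Cd3d alone, and BLM+HBO 3 did so in none. BLM 4 was the highest BLM mouse in 10 of 10 members and the highest of all 7 in Foxp3, Ctla4 and Icos. Without BLM+HBO 1 the median of the members was 0.05, 6 were above 0 and 4 below, and Cd3e (-0.07), Cd3g (-0.04), Cd8b1 (-0.10) and Ctla4 (-0.09) changed sign, while Foxp3 came to 0.02. Without BLM 4 the median of the members was 0.55, and Cd8a (log2 0.94) and Icos (0.85) were called. Without BLM+HBO 3, Cd8a (0.93), Cd3d (0.85) and Cd3g (0.63) were called, and without BLM+HBO 2, Cd8a alone (0.85). Over the 15 alternatives no member reached an adjusted P below 0.05, the lowest being 0.313 for Cd8a.

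Per kilobase of merged exons, Cd3d had the highest mean level in BLM, at 3.04 CPM per kb, followed by Cd8b1 (2.68), Cd3g (2.17), Ctla4 (2.05), Cd4 (1.98), Cd8a (1.62), Cd3e (1.49), Icos (1.25), Foxp3 (0.542) and Cd28 (0.505). Of the 9 gaps between neighbours in this order, 8 were smaller than the larger SD of the pair, and the drop from Icos to Foxp3 exceeded it. In BLM+HBO the levels per kilobase ran from 0.499 for Foxp3 to 4.44 for Cd3d. Foxp3 and Cd28 had the lowest levels per length in both groups.

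Ratios of 2 members within a mouse compare T cell genes with each other instead of with all lung RNA. Over the 7 ratios compared, the exact two-sided permutation test over the 35 possible assignments of mice cannot give a P below 0.0286. The ratio of Cd8a to Cd3e came nearest. Its log2 value was -0.45, -0.03, 0.08 and 0.11 in BLM and 0.40, 0.17 and 0.37 in BLM+HBO, so all 3 treated mice lay above all 4 BLM mice. The difference was 0.39 (exact permutation P = 0.0571, Benjamini-Hochberg adjusted P = 0.40 over the 7 ratios), and it did not pass. Leaving out any 1 mouse kept it between 0.26 and 0.46.

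The ratio of Foxp3 to Cd3e measured -1.49, -1.04, -1.26 and -1.31 on the log2 scale in BLM and -2.64, -1.24 and -1.14 in BLM+HBO. BLM+HBO 1 had the lowest Foxp3 for its Cd3e of the 7 mice, and the other 2 treated mice lay within the BLM range. The difference of -0.40 (exact permutation P = 0.514) became 0.08 without BLM+HBO 1. Ctla4 to Cd28 differed by -0.67 (exact permutation P = 0.286), with values from 0.07 to 1.52 in BLM and from -0.69 to 0.65 in BLM+HBO. The 4 other ratios gave differences of 0.05 for Cd4 to Cd3e, 0.34 for Cd8a to Cd4, -0.17 for Cd8b1 to Cd8a and -0.07 for Icos to Cd28, with exact permutation P values from 0.286 to 0.886. Adjusted P values of these 4 and of the Foxp3 and Ctla4 ratios lay between 0.667 and 0.886.

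**Figure D3:**
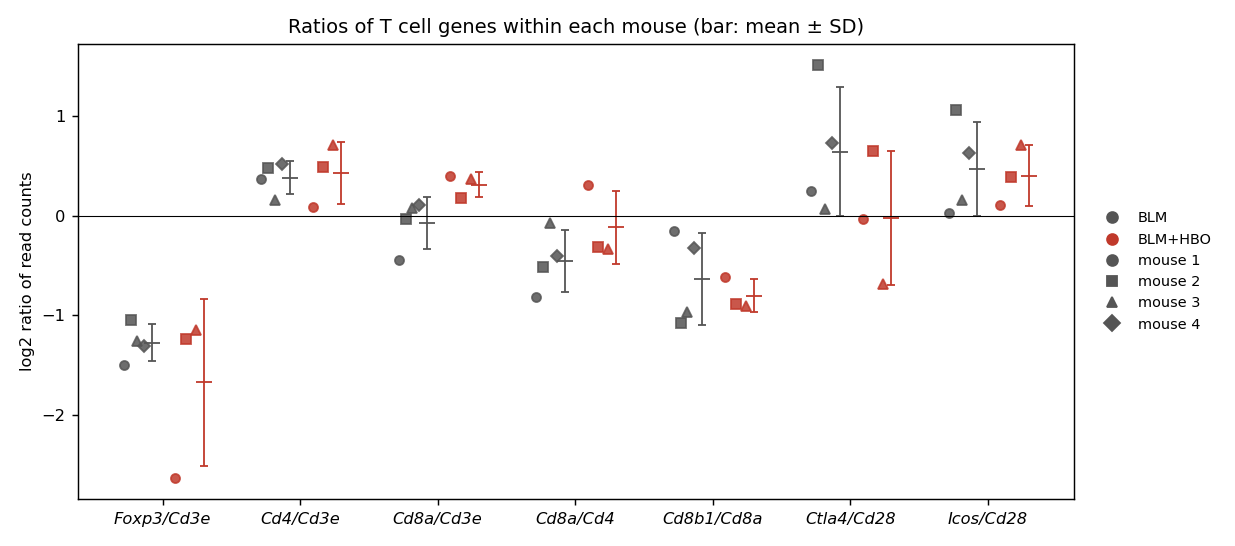
Log2 ratio of 2 T cell genes within each mouse (vertical axis) for the 7 ratios, with points for the 4 BLM and 3 BLM+HBO mice and bars for group means. The Cd8a to Cd3e points of the groups do not overlap, and the low Foxp3 to Cd3e point at -2.64 is BLM+HBO 1.

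The other genes of the T cell receptor and its first signalling steps gave 6 of 20 called higher, beside 3.40% of all tested genes, and 0 called lower. Their median log2 fold change was 0.54, beside 0.01 for all tested genes, with 18 of 20 above 0. Among those called were Trbc2 (0.89), Sh2d1a (1.26), Cd2 (0.78), Trbc1 (0.80) and Cd247 (0.62), at unadjusted edgeR P values from 0.0128 to 0.0447 and adjusted P values from 0.423 to 0.462. Trbc1 and Trbc2 are near-identical constant segments of the receptor beta chain, so their separate counts are uncertain. Trbc2 measured 7.82, 9.02, 9.88 and 10.1 CPM in BLM and 26.6, 14.5 and 10.1 CPM in BLM+HBO, again with BLM+HBO 1 far above the rest. Zap70, the kinase recruited to the CD3 tails, passed an unadjusted P of 0.05 with a fold under 1.5 (log2 0.55, SE 0.20, edgeR adjusted P = 0.426). It measured 7.79 to 9.58 CPM in BLM and 10.4 to 16.9 CPM in BLM+HBO. Its groups did not overlap, with HBO above BLM, as for 4.05% of all tested genes. Lck, the kinase bound to CD4 and CD8, had 0.57 (edgeR adjusted P = 0.494), and the alpha chain constant gene Trac had 0.35 (edgeR adjusted P = 0.680). Without BLM+HBO 1, 0 of these 20 were called and the median was 0.20, whereas without BLM 4, 7 were called and the median was 0.67.

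Genes linked to regulatory T cells gave 0 of 12 called in either direction, beside 6.29% of all tested genes, so 0 is near that share. Gpr83 and Il10 were too low to test, and the median log2 fold change was -0.17. Il2ra, the high-affinity interleukin-2 receptor chain, averaged 4.49 ± 0.851 and 4.53 ± 1.25 CPM in BLM and BLM+HBO (SD over 4 and 3 mice). Ikzf2, encoding Helios, averaged 7.24 ± 0.522 and 7.30 ± 0.933 CPM, and Tnfrsf18, encoding GITR, averaged 5.22 ± 0.786 and 4.12 ± 0.803 CPM (log2 -0.34, edgeR adjusted P = 0.631). Itgae, the integrin chain CD103 of tissue-resident lymphocytes and some dendritic cells, was higher at an unadjusted P under 0.05 (log2 0.49, edgeR adjusted P = 0.436). Its groups did not overlap, with HBO above BLM, as for 4.05% of all tested genes. Lrrc32, which tethers latent TGF-beta on regulatory T cells and endothelium, was lower at an unadjusted P under 0.05 (log2 -0.42, edgeR adjusted P = 0.467). In both genes the fold stayed under 1.5.

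Ligands of costimulatory and coinhibitory receptors included Icosl, the ligand of ICOS. It measured 25.6, 24.5, 21.0 and 31.1 CPM in BLM and 42.4, 37.9 and 34.2 CPM in BLM+HBO. Its groups did not overlap, with HBO above BLM, as for 4.05% of all tested genes. Its log2 fold change of 0.58 (SE 0.15, edgeR adjusted P = 0.423) fell just short of a 1.5-fold change, and it was 0.50 without BLM+HBO 1. Cd80, a ligand shared by CD28 and CTLA-4, had -0.44 (edgeR adjusted P = 0.643). The 7 ligands listed, which include those of OX40, 4-1BB and PD-1, gave 0 called and a median of -0.27. Of all tested genes, 6.29% were called in either direction. Without BLM 4, 1 of these ligands was called higher. Of 7 coinhibitory receptors beside CTLA-4, 1 was called higher, beside 3.40% of all tested genes, and 0 lower. It was Btla, which B cells carry as well (log2 1.10, SE 0.32, edgeR adjusted P = 0.423), and not without BLM+HBO 1 (0.51). Pdcd1, encoding PD-1, had -0.24 (edgeR adjusted P = 0.826).

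Regulators of helper and effector subsets gave 4 of 7 called higher, beside 3.40% of all tested genes, and 0 lower. Those called were Tbx21 (1.37), Cxcr5 (1.12), Eomes (1.08) and Gata3 (0.67), at unadjusted edgeR P values from 0.00502 to 0.0373. Tbx21 and Eomes act in NK cells too, and Cxcr5 is carried by B cells. Without BLM+HBO 1, 1 of the 7 was called, Cxcr5 at 0.77. Of 13 genes of naive, memory and homing T cells, the chemokine receptor Cxcr3 was called higher (0.84, edgeR adjusted P = 0.459), with a median of 0.46 over the list. The gamma delta T cell list gave 2 of 8 called higher, Blk (1.0), which is also a B cell kinase, and Cd163l1 (0.80), with a median of 0.63. Without BLM+HBO 1 neither of these lists had a gene called higher. Without BLM 4, 4 genes of the helper list, 3 of the naive, memory and homing list and 2 of the gamma delta list were called higher.

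Markers of other cells were compared between the groups in the same way. B cell genes gave 8 of 10 called higher (median 0.96), beside 3.40% of all tested genes. Their summed levels were 88.5 to 156 CPM in BLM and 150 to 305 CPM in BLM+HBO. NK cell genes gave 7 of 9 called higher (median 1.66), with 12.7 to 37.0 CPM in BLM and 34.8 to 119 CPM in BLM+HBO. In both lists the highest library was BLM+HBO 1 and the highest BLM library was BLM 4, the order found for most members. Summed over the 10 members, the level was 39.7 to 72.0 CPM in BLM and 44.2 to 95.3 CPM in BLM+HBO. Without BLM+HBO 1, 3 B cell genes and 2 NK cell genes were still called, with medians of 0.56 and 0.93.

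Dendritic cell genes gave 3 of 8 called higher (summed 153 to 272 CPM in BLM, 242 to 320 CPM in BLM+HBO) and plasma cell genes 0 of 5 (1086 to 1443 CPM, 733 to 1086 CPM). In BLM the plasma cell sum was mostly Sdc1 (mean 456 CPM), Jchain (441) and Xbp1 (287). Over all tested genes, 3.40% were called higher and 2.89% lower. Macrophage genes gave 6 of 8 called lower (median -0.90), from 4971 to 6733 CPM in BLM and from 1358 to 4198 CPM in BLM+HBO. Most of that sum was Spp1, at 3820 to 4952 CPM in BLM and 703 to 3054 CPM in BLM+HBO. The groups did not overlap, with HBO below BLM, for 3 of the 8 macrophage genes and for 4.72% of all tested genes. Heart muscle genes gave 7 of 8 called higher (median 1.72), from 58.8 to 169 CPM in BLM and from 150 to 628 CPM in BLM+HBO, again highest in BLM+HBO 1. Proliferation genes gave 1 of 6 called lower, with 177 to 213 CPM in BLM and 105 to 200 CPM in BLM+HBO, and lung epithelial and endothelial genes gave 1 of 8 called higher. Without BLM+HBO 1, 4 heart muscle genes and 1 dendritic cell gene were still called higher and 5 macrophage genes lower, and 0 of the proliferation or of the lung epithelial and endothelial genes were called. Without BLM 4, 5 dendritic cell genes and 7 heart muscle genes were called higher and 6 macrophage genes lower. The part of these cells in the values of the T cell genes was not tested. Thymocyte genes had 2 of 7 members tested and 0 called, and of the lymphoid stroma genes only Cxcl13 was tested and was called lower (-0.75, edgeR adjusted P = 0.458), a call lost without BLM+HBO 1 (-0.84).

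**Figure D4:**
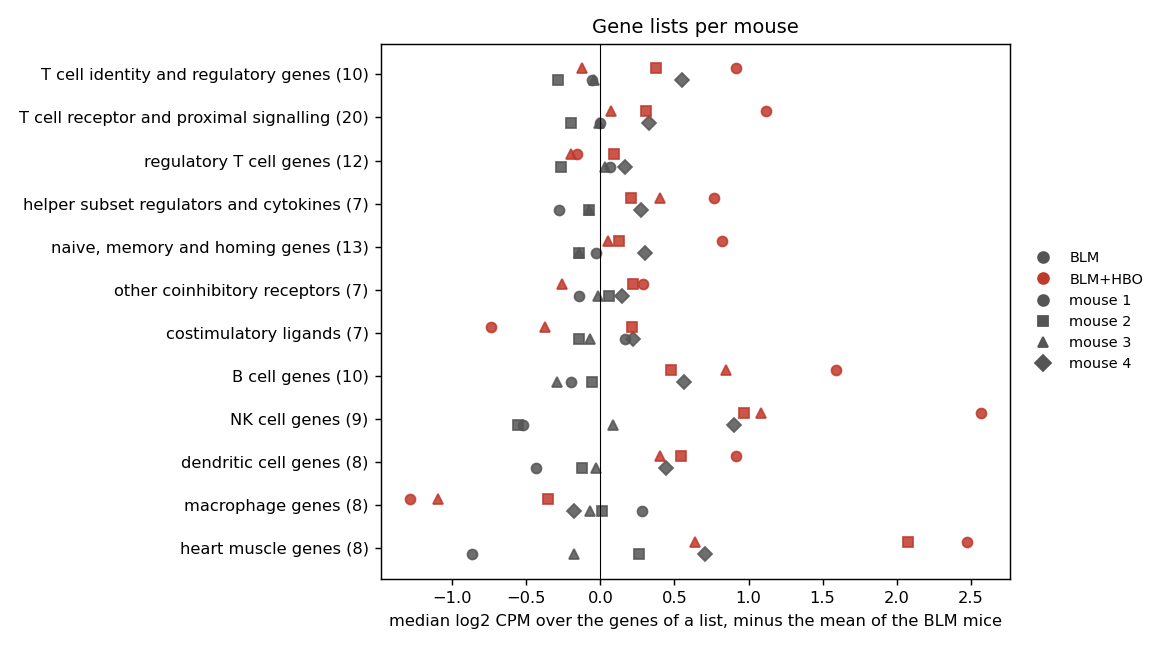
Median over the genes of each list of the log2 level in each mouse relative to the BLM mean (horizontal axis). Rows are the members and lists of other T cell, B cell, NK cell and tissue genes. BLM+HBO 1 lies at 0.91 for the members and at 2.57 for NK cell genes, and BLM 4 at 0.55 and 0.90.

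Across the 7 mice, the tested genes outside all lists whose log2 CPM followed the mean standardised level of the members most closely were Ifi27l2a (Pearson r 0.984), Stk10 (0.979), Nostrin (0.975), Gm2237 (0.973), Themis2 (0.968) and Ctsw (0.964). They were picked as the highest of all tested genes and share libraries and depth with the members, so the values are a description. Ctsw, a protease gene of cytotoxic lymphocytes, measured 5.84, 5.35, 6.37 and 11.2 CPM in BLM and 13.5, 7.51 and 5.17 CPM in BLM+HBO, with the same high mice, BLM 4 and BLM+HBO 1.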

How the data were processed

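RNA of the right lung lobes from 7 mice (4 BLM, 3 BLM+HBO) was sequenced. The authors aligned reads with HISAT2 (2.2.0 per the labels) to GRCm38 and deposited raw read counts per gene from featureCounts (2.2.0 per the labels, another version in the methods). Trimming was by Trim Galore, and counting used default settings, which ignore strand and leave out reads that fit several genes or places, so overlapping antisense genes cannot be separated. All 7 columns matched a sample title. Symbols came from GENCODE vM21 for 55141 of 55401 identifiers.

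From these counts, genes were filtered with filterByExpr (minimum count 10), scaled by TMM and tested with edgeR 4.0.16 (quasi-likelihood, 2 groups, R 4.3.3), with Benjamini-Hochberg adjustment over 17465 genes. A gene is called at P below 0.05 with a fold change above 1.5, the thresholds of the study. Folds are as edgeR fits them, and CPM uses TMM-scaled totals. Ratios of counts were tested by exact permutation (Python 3.11.15), after 0.5 was added to each count. On counts simulated for this comparison, with 17465 genes, edgeR was scored at an adjusted P below 0.05. In each of 3 simulated data sets 200 genes were changed. Counts were drawn independently for each gene and mouse, with the spread typical of genes at that level. No gene had a spread of its own, and no mouse differed in many genes at once. Under these settings edgeR recovered 61.7% of genes changed 2-fold and 90.3% of those changed 4-fold, with 3.59% false calls among those made. These rates cannot be carried over to the measured counts, where single mice differed in many genes. In the measured counts 0 genes had an adjusted P below 0.05. Recovery at the low counts of the members was not tested separately. Recovery by the unadjusted P and fold that set a call was not tested either.

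DESeq2 1.42.0, limma-trend 3.58.1, other scalings, filters and thresholds, a replicate block and leaving out each mouse were run as alternatives. All 7 libraries were kept. Replicates differed beyond counting noise, with a chi-square per gene of 22.1 to 45.0 between BLM mice and 39.4 to 64.3 between BLM+HBO mice. Each library is labelled as a separate sample, and P values measure the spread between these samples. Whether a shared replicate number pairs mice of the 2 groups was not settled. The 18 gene lists, the members among them, were chosen with earlier results of these data known. Named beside the members are up to 4 genes of each list with the lowest edgeR P, set receptor and regulatory genes, and the 6 genes most like the members. Promoter windows came from RefSeq for 6 members, and no protein sequence was used here. Some genes of the lists are counted but not reported here by name.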

Additional observations from a re-analysis of the deposited data

Results flagged for a closer look

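In a group of 4 samples, a value was marked as far from the others when its gap to the nearest, as a share of the group's range, exceeded Dixon's 95% critical value, which chance gives in about 1 of 20 groups. Only BLM values were examined, so no BLM+HBO mouse could be marked. Of the 56 groups, 3 were marked, which is near the rate that chance gives. In each of them BLM 4 was the high sample. Trbc1 stood at 3.24 log2 CPM in BLM 4 against 2.44 to 2.52 in BLM 1 to 3 (gap ratio 0.899). Klrk1, an activating receptor of NK cells and cytotoxic T cells, stood at 2.37 log2 CPM against 1.56 to 1.68 (0.857). BLM 4 also had the largest library of its group, 19002242 counts beside 18436336 to 18452895 (0.971). No member gene was marked, although BLM 4 was the highest BLM mouse in 10 of 10.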

How the results depend on the processing

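The count of member genes called, 0, became 1 with DESeq2 (Cd8a), 1 with no filter on low counts (Cd8a) and 0 to 3 when 1 mouse was left out. The count over all tested genes, 1098, became 1940 with no filter, 319 at P below 0.01, 509 at a fold above 2, 0 at adjusted P below 0.1, and 659 to 1914 when 1 mouse was left out. The 6 receptor and signalling genes became 0, 1 and 0 under the same 3 thresholds and 0 to 10 when 1 mouse was left out. B cell counts of 8 then ran from 3 to 10 and NK cell counts of 7 from 2 to 9.

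Deviations of same-numbered mice from their group means correlated at -0.008, -0.066 and 0.161, and those of other pairs from -0.179 to 0.165. So few correlations cannot decide whether the numbers pair the mice. With a replicate block, 1 member was called (Icos, 0.85), 1258 genes in all, and the ratio differences were -0.41, 0.09, 0.45, 0.35, -0.07, -0.64 and -0.01 in the order Foxp3 to Cd3e, Cd4 to Cd3e, Cd8a to Cd3e, Cd8a to Cd4, Cd8b1 to Cd8a, Ctla4 to Cd28 and Icos to Cd28.

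Signs turned when 1 mouse was left out for Cd3e (-0.067 to 0.57), Cd3g (-0.041 to 0.63), Cd8b1 (-0.10 to 0.90), Foxp3 (-0.30 to 0.019), Ctla4 (-0.22 to 0.48), Trac (-0.0016 to 0.56), Lat (-0.048 to 0.73), Il2ra (-0.17 to 0.21), Ikzf2 (-0.073 to 0.10) and the ratios Foxp3 to Cd3e (-0.66 to 0.084), Cd4 to Cd3e (-0.091 to 0.22) and Icos to Cd28 (-0.22 to 0.13). Ctla4 was -0.021 and Il2ra -0.0059 with limma-trend, Il2ra -5.55e-05 with DESeq2, and Ikzf2 -0.015 with the replicate block. The cause was not tested.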

Other observations

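Most effector cytokines of T cells in the helper list were too low to test. Il4, the one that could be tested, had a log2 fold change of -0.09 (edgeR adjusted P = 0.937). Ifng, the main cytokine of cytotoxic and type 1 helper cells, had 1, 6, 7 and 5 counts in BLM and 17, 6 and 3 in BLM+HBO. Il5 had 6, 2, 1 and 0 counts in BLM and 0, 3 and 10 in BLM+HBO, and Il13 had 0 to 4 counts in BLM and 1 to 7 in BLM+HBO. Il17a had 6 counts in BLM 1, 1 in BLM 4 and 0 in the other 5 libraries. Il10, which regulatory T cells and macrophages secrete, had 3 to 9 counts in BLM and 2 to 5 in BLM+HBO. Ccl19, a chemokine that draws naive T cells into lymphoid tissue, had 13 counts in BLM 3, 19 in BLM+HBO 1 and at most 1 in the other 5 libraries. Ccl21a, which binds the same receptor, had 20 counts in BLM 3, 2 in BLM+HBO 1 and at most 7 elsewhere.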
